A study of Mus musculus with 8 samples.

Results

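The genes described here are 10 regulators and markers of lymphatic and blood vessels: the ligands Vegfc and Vegfd, the receptors Flt1, Kdr, Flt4 and Nrp2, and the endothelial genes Prox1, Lyve1, Pecam1 and Cdh5. They were selected by gene symbol, and all 10 were among the 32285 genes counted in each library. Single-cell RNA sequencing with 10x Genomics 3′ kits, which count each captured transcript once as a unique molecular identifier (UMI), was available for 8 libraries of mouse colon cells, 2 in each of 4 groups. Assembloid stroma comprised EpCAM-negative cells and assembloid epithelium comprised epithelial cells of assembloids, in which colon organoids and cultured primary colon stromal cells are combined in Matrigel and kept in medium lacking Wnt surrogate, CHIR-99021, R-spondin 1 and noggin. Organoid epithelium was grown without stroma in medium containing these 4 factors, and tissue epithelium was isolated from colon crypts. The methods name C57BL/6 mice for the stromal and tissue libraries, the study used male animals, and no allele or treatment beyond the culture media is named for these 8 libraries. The stromal cells had been expanded in culture, so that only vessel cells that outlasted this culture could be recovered.

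VEGF-C and VEGF-D are secreted factors that promote the growth of lymphatic vessels, and VEGF-C, once processed by proteases, can also act on blood vessels. Both bind VEGFR3, encoded by Flt4, and VEGF-C also binds VEGFR2, encoded by Kdr. Neuropilin 2, encoded by Nrp2, serves as a co-receptor, whereas VEGFR1, encoded by Flt1, binds VEGF-A and related ligands. PROX1 is the transcription factor that specifies lymphatic endothelium, LYVE1 is a hyaluronan receptor of lymphatic endothelium and some macrophages, and PECAM1 and VE-cadherin, encoded by Cdh5, are junction proteins of endothelial cells in general.

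The promoters of both ligands are shown because the ligands differed in their distribution among the cells described below. Vegfc (ENSMUSG00000031520) lies at chr8:54077606-54187096 and Vegfd (ENSMUSG00000031380) at chrX:164373378-164402650, both on the plus strand of GRCm38. The RefSeq promoter windows on GRCm38.p6 run from 250 bases before to 50 bases after the RefSeq start, at chr8:54077282-54077581 for Vegfc and chrX:164373272-164373571 for Vegfd. Capitals mark matches of GGGCGG and TATAAA on either strand.
Vegfc promoter: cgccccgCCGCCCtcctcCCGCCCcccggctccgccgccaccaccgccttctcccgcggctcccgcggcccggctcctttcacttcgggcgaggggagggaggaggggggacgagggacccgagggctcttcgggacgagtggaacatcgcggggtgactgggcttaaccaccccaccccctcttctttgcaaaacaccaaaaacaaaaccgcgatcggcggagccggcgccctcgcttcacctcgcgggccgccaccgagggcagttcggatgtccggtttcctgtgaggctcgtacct
Vegfd promoter: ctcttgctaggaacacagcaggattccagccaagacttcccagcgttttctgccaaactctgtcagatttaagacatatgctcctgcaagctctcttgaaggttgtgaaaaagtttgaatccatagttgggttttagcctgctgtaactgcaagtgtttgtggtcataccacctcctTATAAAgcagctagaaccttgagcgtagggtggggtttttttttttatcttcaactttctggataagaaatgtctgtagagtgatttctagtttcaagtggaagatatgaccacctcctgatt
The Vegfc window contained 70.3% G and C, with 2 matches of GGGCGG and 0 of TATAAA. The Vegfd window contained 42.0% G and C, with 0 matches of GGGCGG and 1 of TATAAA. Neither window contained CCGGAA, which was searched in the same way. Among 32851 promoter windows of this length, 35.7% contained GGGCGG, 13.6% TATAAA and 14.9% CCGGAA. The matches describe letters only, not bound sites.

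Cells were kept if they had 500 or more genes and no more than 10% mitochondrial UMIs, which left 4310 to 29410 cells per library and between 25.4 and 96.1% of the barcodes. The share kept was lowest in tissue, at 38.7 and 25.4%. It was 94.8 and 96.1% in stroma, 89.3 and 55.1% in assembloid epithelium and 81.4 and 55.3% in organoids. Pairs of libraries had 6 to 76 cell barcodes in common. Levels are given as CPM, the UMIs of a gene per 1000000 UMIs of the sum, in the order of replicate 1 and replicate 2, and the library sums behind them ranged from 36942695 to 180875252 UMIs. Cells passing a gate on endothelial, macrophage or fibroblast genes were left out of the sums of the epithelial libraries but not of the stromal ones. Epithelial marker genes made up 7650 to 16300 CPM of the epithelial sums. Of 930 squamous basal-like cells in the stroma, 882 came from replicate 1, and leaving these and the epithelial-like cells out changed none of the calls between stroma and assembloid epithelium given for the 10 genes. The stromal files were written by another version of Cell Ranger than the epithelial files, so that software and sort cannot be told apart between stroma and epithelium.

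Vegfc was a stromal transcript that was also present in tissue epithelium. It reached 30.8 and 34.4 CPM in assembloid stroma and 12.2 and 11.2 in tissue epithelium. It was at 0.939 and 1.48 in assembloid epithelium and at 0.547 and 1.04 in organoid epithelium. The stromal libraries lay above all others, tissue lay above both cultured epithelia, and the assembloid and organoid libraries overlapped. In such sums, fewer expressing cells and less RNA per cell cannot be told apart.

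In assembloids, Vegfc was 30.7-fold higher in the stroma than in the epithelium (log2 difference 4.94 ± 0.28 SE, adjusted p = 5.09e-06; edgeR's quasi-likelihood test with Benjamini-Hochberg adjustment over 20677 genes, used for all comparisons of libraries). Of all genes tested in this comparison, 71.5% were called, 38.5% higher and 33.0% lower in stroma, and 7 of the 10 genes were called, all higher in stroma. Because gated cells were left out of the epithelial sums only, this count and the median given below are not independent of the gates. The fibroblast-gated cells left out held 404 Vegfc and 355 Vegfd UMIs, against 315 and 295 in the assembloid epithelial cells kept. Vegfc was 7.55-fold lower in assembloid than in tissue epithelium (-2.92 ± 0.26 SE, adjusted p = 0.000162), in a comparison that called 46.7% of all genes (25.3% higher and 21.4% lower in assembloids) and 7 of the 10, with 4 higher and 3 lower. It was 12.8-fold lower in organoid than in tissue epithelium (-3.68 ± 0.27 SE, adjusted p = 5.92e-05), where 43.9% of all genes (23.2% higher and 20.7% lower in organoids) and 5 of the 10 were called, with 2 higher and 3 lower. Between the cultures, where 50.9% of all genes (23.7% higher and 27.2% lower in organoids) and 6 of the 10 were called, with 1 higher and 5 lower in organoids, Vegfc was 1.70-fold lower in organoids (-0.76 ± 0.26 SE, adjusted p = 0.0378). This last call was lost when any of 6 of the 8 libraries was left out. With all passing cells kept, fibroblast-gated ones included, the log2 difference of Vegfc was 3.89 between stroma and assembloid epithelium, -1.87 between assembloid and tissue epithelium and -1.81 between organoid and assembloid epithelium, all called. The 3 epithelial comparisons share libraries, and the stromal comparison shares the assembloid epithelium with 2 of them. The median log2 difference of the 10 genes was 2.59 between stroma and assembloid epithelium, against 0.17 over all genes. It was 0.93 between assembloid and tissue epithelium, or -0.04 with genes at 0 in a group set to their bound, against 0.07. It was 0.26 between organoid and tissue epithelium, against 0.06, and -1.52 between organoid and assembloid epithelium, where no gene was at 0 in a group, against -0.04. At the bound, the median between organoid and tissue epithelium was -0.85. It leaves out Kdr and Cdh5, each with 1 UMI in organoids and 0 in tissue, and so is not a median of the 10 genes. All medians at the bound leave out genes at 0 in a group with no more than 3 UMIs in the other.

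The share of cells in which Vegfc was detected followed the same order after each cell was thinned to a common depth of 2000 UMIs. The thinned shares were 6.23 and 6.14% in stroma, 2.09 and 2.10% in tissue, 0.220 and 0.376% in assembloid epithelium and 0.150 and 0.109% in organoids. Without thinning they were 35.7 and 35.6%, 7.81 and 6.94%, 0.535 and 1.91%, and 1.72 and 1.01%, respectively. Tissue thus lay between stroma and the cultured epithelia on every scale. Cells with fewer UMIs were left out by thinning: 51 and 32 in stroma, 2249 and 1539 in tissue, 6941 and 785 in assembloid epithelium, and 110 and 3419 in organoids.

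Vegfd reached 16 and 30.4 CPM in stroma, 1.02 and 1.17 in assembloid epithelium, 0.984 and 1.53 in organoid epithelium, and 0.660 and 0.541 in tissue epithelium. Both stromal libraries lay above all epithelial ones, and tissue lay lowest. Vegfd was 23.9-fold higher in stroma than in assembloid epithelium (4.58 ± 0.36 SE, adjusted p = 1.81e-05). Relative to tissue, which held 51 UMIs in all, it was 2.35-fold higher in assembloid epithelium (1.23 ± 0.36 SE, adjusted p = 0.0231) and 2.44-fold higher in organoids (1.29 ± 0.36 SE, adjusted p = 0.0202). Both of these calls were lost when any library of the groups compared was left out. With all passing cells kept, Vegfd differed by 3.55 between stroma and assembloid epithelium and by 2.26 between assembloid and tissue epithelium, both called. Between organoid and assembloid epithelium the log2 difference was 0.05 ± 0.32 SE (adjusted p = 0.907), and it became -0.98 (adjusted p = 0.0368) when all passing cells were kept.

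**Figure D1:**
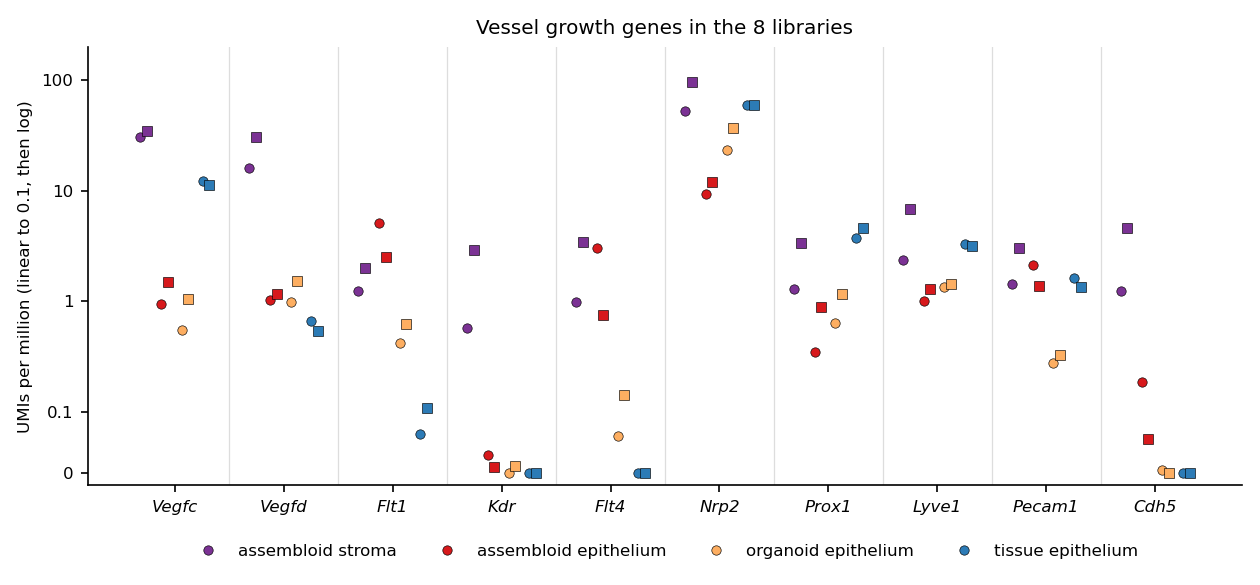
Levels of the 10 genes in the 8 libraries, in CPM, on an axis that is linear up to 0.1 and logarithmic above. Colours mark the 4 groups, circles replicate 1 and squares replicate 2; Vegfc lay at 30.8 and 34.4 in stroma and at 12.2 and 11.2 in tissue epithelium, while Kdr, Flt4 and Cdh5 were at 0 in both tissue libraries.

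Within the stroma, both ligands were higher in trophocyte-like than in telocyte-like fibroblasts. Trophocytes are known as CD81-positive fibroblasts that supply stem cell factors below the crypts, and telocytes as subepithelial fibroblasts that produce BMP ligands and WNT5A. Telocyte-like cells (1360 and 1975 cells) formed 2 clusters with Bmp5 among their leading genes. Trophocyte-like cells (3886 and 4937 cells) formed 3 clusters, one led by Ogn and Aspn, one with Hmox1 and H19 and one with the interferon-induced genes Cxcl10, Rsad2 and Ifit3 among its leading genes. The trophocyte marker list summed to 2350 and 2780 CPM in trophocyte-like and to 1200 and 1200 in telocyte-like cells, and the telocyte list to 403 and 260 against 992 and 923. These clusters were named by which of the 2 lists had the higher mean log2 fold over the other stromal cells, and no leading gene of the 3 trophocyte-like clusters is on the trophocyte list. Their mean log2 folds for that list were 0.19, 0.21 and 0.61, and the cluster with Hmox1 and H19 scored higher, at 0.58, on the pericyte list. The cluster led by Ogn and the one with Cxcl10 scored higher, at 0.33 and 0.84, on a general fibroblast list.

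Vegfc reached 46.9 and 43.4 CPM in trophocyte-like and 22.9 and 22.7 in telocyte-like fibroblasts. The libraries did not overlap, and the level was 2.07-fold lower in telocyte-like cells (-1.05 ± 0.20 SE, adjusted p = 0.00331; edgeR over 14929 genes). With the library as a block, which pairs the class sums, adjusted p was 0.000412, and the unblocked call was lost without stromal replicate 1 (adjusted p = 0.0853) or replicate 2 (0.137). Vegfd differed more, at 23.6 and 46.2 in trophocyte-like against 5.12 and 5.67 in telocyte-like fibroblasts. It was 6.81-fold lower in telocyte-like cells (-2.77 ± 0.37 SE, adjusted p = 0.00033). Leaving out the cluster with the higher pericyte score, an alternative chosen after seeing the data, gave -1.05 (adjusted p = 0.0035) for Vegfc and -2.80 (0.000314) for Vegfd. The comparison called 11.4% of all genes (6.77% higher and 4.6% lower in telocyte-like cells) and 2 of the 10, both lower in telocyte-like cells, and the median log2 difference was -0.2 over the 10 genes against -0.04 over all genes. With the block, 4 of the 10 and 3048 genes in all were called, against 1697 without it. The genes gained were Nrp2, given below, and Flt1, at 0.252 and 0.122 CPM in telocyte-like and 0.650 and 0.974 in trophocyte-like cells (-2.20 ± 0.73 SE, adjusted p = 0.0737; -2.22, adjusted p = 0.0229 with the block). Flt1 was also called at resolutions 0.1 (0.0213) and 0.4 (0.0231) and without a filter on low counts (0.00425), and not without stromal replicate 1 (-3.02) or replicate 2 (-1.36). It rests on 10 UMIs in telocyte-like cells.

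Ligand levels are also given for each cluster, as a description. Vegfc was at 47.2 and 43.7, 44.2 and 39.7, and 49.7 and 47.7 CPM in the 3 trophocyte-like clusters, and at 23.1 and 24, and 22.6 and 21 in the 2 telocyte-like clusters. Vegfd ranged from 17.3 to 53.9 in the trophocyte-like and from 4.31 to 6.30 in the telocyte-like clusters. The cluster with interferon-induced genes, given last, lay above the other trophocyte-like clusters in Vegfc in each library, by less than the distance to the telocyte-like clusters. Of the UMIs of both ligands together, Vegfc contributed 81.7% (95% exact binomial interval 78.6 to 84.6) and 80.0% (77.3 to 82.5) in telocyte-like cells, and 66.6% (65.1 to 68.0) and 48.5% (47.1 to 49.8) in trophocyte-like cells. The intervals cover counting error only. Both ligands were detected together in 483 and 756 trophocyte-like and in 32 and 60 telocyte-like cells.

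Other stromal classes are given as a description. In a cluster of cycling fibroblasts Vegfc was at 36.0 and 36.1 CPM and Vegfd at 20.7 and 28.8, and in a cluster led by Spp1 they were at 24.8 and 33.2, and at 19.9 and 34.3. Neuron-like cells held Vegfc at 8.89 and 4.5, from 25 and 9 UMIs, and glia-like cells at 8.15 and 7.07, from 8 and 6 UMIs. Squamous basal-like cells held it at 5.04 and 6.92. All fibroblast clusters therefore lay above these 3 classes in Vegfc.

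**Figure D2:**
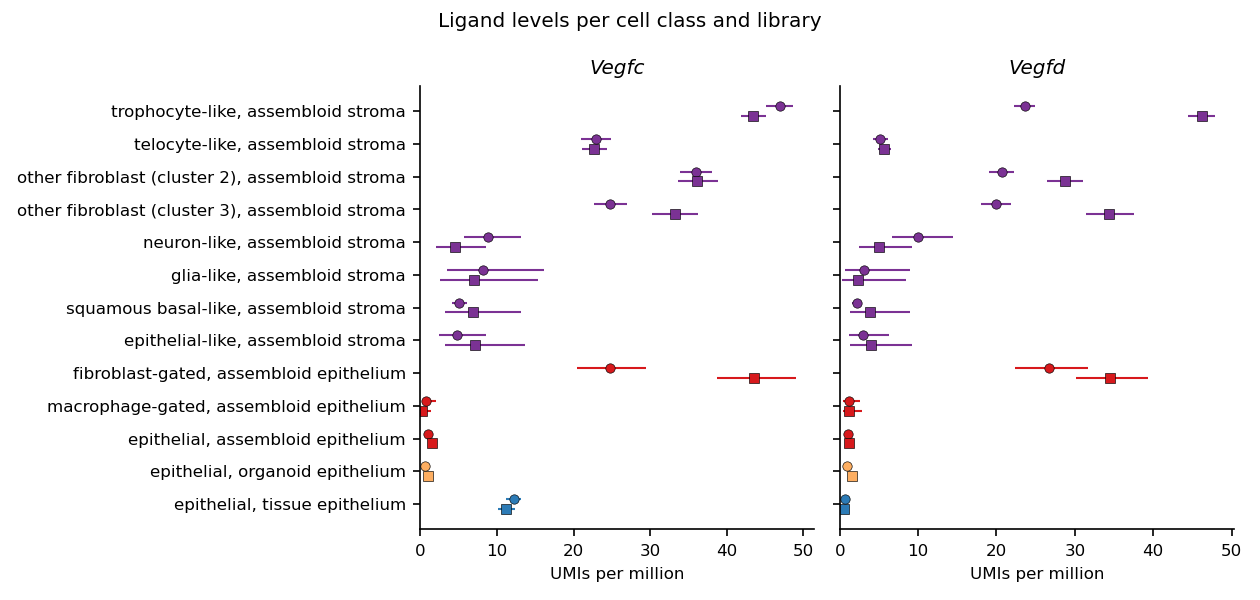
Vegfc and Vegfd in CPM in each cell class, with exact Poisson 95% intervals as bars, circles for replicate 1 and squares for replicate 2. Trophocyte-like fibroblasts lay at 46.9 and 43.4 for Vegfc and telocyte-like fibroblasts at 22.9 and 22.7.

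The assembloid epithelial libraries also contained 750 and 544 fibroblast-gated cells, in which Vegfc was at 24.7 and 43.6 and Vegfd at 26.7 and 34.5 CPM. In the epithelial cells of the same libraries Vegfc made up 48.0 and 55.8% of the UMIs of both ligands, and in the fibroblast-gated cells 48.0 and 55.8%. In tissue epithelium this share was 94.9 and 95.4%, and in organoids 35.7 and 40.4%. A list of 8 fibroblast genes summed to 287 and 76.6 CPM in assembloid epithelial cells, with no gene at 0. It summed to 6.28 and 5.22 in tissue, with 6 and 5 of the 8 genes at 0, and to 0.575 and 1.03 in organoids, with 4 of 8 at 0. The part of fibroblast RNA in the epithelial ligand levels was not tested.

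Among the receptors, Nrp2 was the one found widely in both stroma and epithelium. It reached 52.6 and 96.5 CPM in stroma, 59.5 and 60.2 in tissue, 23.4 and 36.8 in organoids and 9.28 and 11.9 in assembloid epithelium. Stroma and tissue overlapped, and assembloid epithelium lay below all other libraries. Nrp2 was 7.96-fold higher in stroma than in assembloid epithelium (2.99 ± 0.30 SE, adjusted p = 6.23e-05), 4.37-fold lower in assembloid than in tissue epithelium (-2.13 ± 0.29 SE, adjusted p = 0.000926) and 2.58-fold higher in organoid than in assembloid epithelium (1.37 ± 0.29 SE, adjusted p = 0.00511). Between organoids and tissue the difference was -0.76 ± 0.28 SE with adjusted p = 0.0589, and with adjusted p = 0.0332 when the replicate number was a block. It also passed with DESeq2 (0.0159), without a filter on low counts (0.0158), without either stromal library (0.0183 and 0.0173), without the squamous basal-like and epithelial-like stromal cells (0.0361) and at 5% mitochondrial UMIs (-1.17, 0.00758). Thinned to 2000 UMIs, Nrp2 was detected in 9.91 and 18.0% of stromal, 11.4 and 11.3% of tissue, 4.99 and 8.13% of organoid and 1.95 and 2.24% of assembloid epithelial cells, against 47.4 and 58.9%, 21.8 and 22.4%, 47.3 and 24.1%, and 4.89 and 12.1% unthinned.

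Among the stromal fibroblasts, Nrp2 was at 71.8 and 134 CPM in trophocyte-like and at 39.4 and 48.9 in telocyte-like cells, which did not overlap. The log2 difference was -1.30 ± 0.40 SE with adjusted p = 0.0502, and -1.24 with adjusted p = 0.00253 when the library was a block. It also passed with DESeq2 (0.0354), without a filter on low counts (2.86e-06) and at clustering resolution 0.4 (-1.52, 0.0112). Macrophage-gated cells of the assembloid epithelial libraries held Nrp2 at 44.3 and 90.0.

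The other 3 receptors were far scarcer. Kdr was at 0.569 and 2.89 CPM in stroma, at 0.0301 and 0.00932 in assembloid epithelium, from 5 and 1 UMIs, at 0 and 0.0109 in organoids, and at 0 in both tissue libraries. Stroma lay above all epithelial libraries, and Kdr was 85.8-fold higher there than in assembloid epithelium (6.42 ± 1.1 SE, adjusted p = 0.00151). Endothelial-gated cells were taken out of the epithelial sums only; with all passing cells kept, the log2 difference was 3.77 and was still called. It was 7.17 and 4.83 without stromal replicate 1 and 2, respectively, and 7.63 without assembloid epithelium replicate 1. The 6 UMIs of assembloid epithelium and 0 of tissue allow no fold between them (adjusted p = 0.291); with all passing cells kept, Kdr was called higher in assembloid epithelium than in tissue (0.0342) and in organoids (0.0155).

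Flt4 was at 0.983 and 3.40 CPM in stroma, at 3.06 and 0.745 in assembloid epithelium, at 0.0608 and 0.142 in organoids and at 0 in tissue. Stroma and assembloid epithelium overlapped (0.31 ± 0.81 SE, adjusted p = 0.748, and -0.85 to 1.82 when 1 library was left out), while assembloid epithelium lay above organoids and tissue. It was at least 60.3-fold higher in assembloid than in tissue epithelium, against a floor of 3 UMIs over the tissue group (adjusted p = 0.00431; 0.00944 without assembloid replicate 1, which held 509 of the 589 UMIs, and 0.00161 without replicate 2). From each assembloid library alone, the limits were 85.7-fold in replicate 1 and 20.9-fold in replicate 2. It was 22.6-fold lower in organoid than in assembloid epithelium (-4.5 ± 0.99 SE, adjusted p = 0.00831). The second call was lost without organoid replicate 1 (0.0777) or replicate 2 (0.0541), and the log2 difference was -2.99 without assembloid replicate 1 and -5.20 without replicate 2.

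Flt1 was at 1.24 and 2.01 CPM in stroma, 5.06 and 2.49 in assembloid epithelium, 0.415 and 0.622 in organoid epithelium, and 0.0638 and 0.108, from 3 and 4 UMIs, in tissue epithelium. Assembloid epithelium lay above all other libraries. Flt1 was 58.9-fold higher in assembloid than in tissue epithelium (5.88 ± 0.64 SE, adjusted p = 0.000349), 7.14-fold higher in organoid than in tissue epithelium (2.84 ± 0.65 SE, adjusted p = 0.00836) and 8.25-fold lower in organoid than in assembloid epithelium (-3.04 ± 0.50 SE, adjusted p = 0.00181). The call between organoids and tissue was lost without tissue replicate 1 (adjusted p = 0.0736) and at 5% mitochondrial UMIs (0.0661). Without assembloid replicate 1, the log2 difference of assembloid from tissue epithelium was 5.15 and that of organoid from assembloid epithelium -2.31, both still called. Between stroma and assembloid epithelium the difference was -1.08 ± 0.46 SE (adjusted p = 0.0634). It ranged from -1.56 to -0.35 when 1 library was left out, and it passed the threshold with DESeq2 (0.0196), without a filter on low counts (0.0145), without assembloid epithelium replicate 2 (0.0111) and without organoid replicate 1 (0.0433).

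The Flt1 and Flt4 UMIs of assembloid epithelium were concentrated in few cells outside the endothelial gate. Cells with at least 5 Flt1 UMIs numbered 23 and 12 and held 43.3 and 58.8% of the Flt1 UMIs, with up to 71 and 28 UMIs in a cell. Cells with at least 5 Flt4 UMIs numbered 23 and 7 and held 59.9 and 71.2% of the Flt4 UMIs, with up to 51 and 20. No cell had at least 5 UMIs of both genes, and none of these cells held a UMI of Cldn5, a tight junction gene of endothelium. Cldn5 is itself a gate gene, and only 3 and 1 of its UMIs remained in these sums. Its absence therefore does not tell what these cells are. This cut of 5 UMIs was chosen after the values were seen.

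The lymphatic genes Prox1 and Lyve1 were low in all sums. Prox1 was at 1.30 and 3.34 CPM in stroma, 3.74 and 4.63 in tissue, 0.349 and 0.894 in assembloid epithelium and 0.630 and 1.15 in organoids. Tissue lay above all other libraries. Prox1 was 5.34-fold lower in assembloid than in tissue epithelium (-2.42 ± 0.57 SE, adjusted p = 0.00965) and 4.05-fold lower in organoid than in tissue epithelium (-2.02 ± 0.56 SE, adjusted p = 0.0193), a call that was lost when any library of these 2 groups was left out. At 5% mitochondrial UMIs these log2 differences were -3.73 and -3.29, both called. It was 4.34-fold higher in stroma than in assembloid epithelium (2.12 ± 0.56 SE, adjusted p = 0.00902), and without stromal replicate 2 the log2 difference was 1.28 (adjusted p = 0.0631). Without assembloid epithelium replicate 2 it was 2.81, and that of assembloid from tissue epithelium -3.11. Prox1os and Gm28172 overlap Prox1 on the opposite strand.

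Lyve1 was at 2.34 and 6.81 CPM in stroma, 3.30 and 3.17 in tissue, 0.999 and 1.28 in assembloid epithelium and 1.34 and 1.44 in organoids. Stroma and tissue overlapped. Lyve1 was 4.55-fold higher in stroma than in assembloid epithelium (2.19 ± 0.48 SE, adjusted p = 0.00352), or by 1.22 without stromal replicate 2 (adjusted p = 0.0174). The differences of -1.14 ± 0.47 SE for assembloid (adjusted p = 0.0797) and -0.95 for organoid epithelium (0.137) relative to tissue did not pass the threshold. Both passed when either stromal library was left out of the shared fit (0.0133 and 0.0182 for assembloid, 0.0282 and 0.0382 for organoid epithelium).

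Pecam1 was at 1.43 and 3.02 CPM in stroma, 2.11 and 1.36 in assembloid epithelium, 1.62 and 1.35 in tissue and 0.276 and 0.328 in organoids, which alone lay apart. It was 4.11-fold lower in organoids than in tissue (-2.04 ± 0.48 SE, adjusted p = 0.0102) and 6.34-fold lower than in assembloid epithelium (-2.66 ± 0.48 SE, adjusted p = 0.00276). The call against tissue was lost without organoid replicate 1 (adjusted p = 0.0518), organoid replicate 2 (0.0588) or tissue replicate 1 (0.0562), and at 5% mitochondrial UMIs the log2 difference was -2.94 (0.00353). In assembloid epithelium, 11 and 7 cells with at least 5 Pecam1 UMIs held 28.9 and 37.7% of its UMIs, and macrophage-gated cells of these libraries, which were left out of the sums, held Pecam1 at 7.58 and 8.59.

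Cdh5 was at 1.24 and 4.64 CPM in stroma, at 0.187 and 0.0559 in assembloid epithelium, from 31 and 6 UMIs, at 0.00553 and 0 in organoids and at 0 in tissue. All stromal values lay above the epithelial ones, and Cdh5 was 25.4-fold higher in stroma than in assembloid epithelium (4.67 ± 0.89 SE, adjusted p = 0.00246). The endothelial-gated cells left out of the epithelial sums held 63 and 37 Cdh5 UMIs, and with all passing cells kept the log2 difference was 2.80 (adjusted p = 0.0073). Without 1 of the 4 libraries compared it ranged from 3.43, without stromal replicate 2, to 5.95, without assembloid epithelium replicate 1, and stayed called. It was at least 3.79-fold higher in assembloid than in tissue epithelium (adjusted p = 0.0473), or at least 5.22-fold from replicate 1 and 1.56-fold from replicate 2 alone. With all passing cells kept, gated cells included, adjusted p was 0.00526. Without the gated cells the call was lost with the replicate number as a block (0.0655), without assembloid replicate 1 (0.178), either tissue library (0.157 and 0.125) or either organoid library (0.0712 and 0.0798), at 5% mitochondrial UMIs (0.132) and with a higher minimum of genes per cell (0.0551). In organoids 1 UMI stood against 37 in assembloid epithelium, a ratio of 36.9 (95% interval 6.22 to 1500; adjusted p = 0.0233), and this call was lost without assembloid replicate 1 (0.139), organoid replicate 1 (0.0968) or organoid replicate 2 (0.114). All 10 genes passed the filter on low counts, and Kdr, Flt4 and Cdh5 are at or near 0 in at least 1 of the 4 groups.

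Endothelial cells in the stroma were gated by at least 3 of 12 endothelial genes that do not include the 10, among them Cldn5, Tie1 and Egfl7. The gate held 79 and 122 stromal cells, 0.876 and 1.35% of the libraries. It held 20 and 33 assembloid epithelial, 110 and 40 organoid and 0 and 0 tissue cells, the last allowing shares of up to 0.0639 and 0.0696%. The organoid gate did not match its name: 5 of the 12 gate genes and Kdr, Flt4 and Cdh5 were at 0 in it, its cells were deep, with medians of 52852 and 33934 UMIs, and the gate gene Egfl7 lay at 9.45 and 7.53 CPM in organoid epithelium against 0.553 and 0.487 in tissue. In the stroma, 53 and 48 gated cells carried exactly 3 gate genes, and of these 45 and 48 fell in fibroblast clusters, and 48 and 46 had no UMI of Flt1, Kdr, Flt4, Prox1, Lyve1, Pecam1 or Cdh5. Of the 26 and 74 cells with at least 4 gate genes, 22 and 71 fell in 1 cluster of 102 cells led by Ccl21a, Cldn5, Nts and Lyve1, which was left unnamed because C1qa and C1qb were also among its leading genes. The stricter gate is therefore given beside the wider one. Because the gate reads RNA of the same cells, the values below are a description.

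In cells with at least 3 gate genes, the receptor Kdr was at 23.9 and 130 CPM, against 0.288 and 0.328 in all other stromal cells. Flt4 was at 46.2 and 159 against 0.438 and 0.263, and Flt1 at 16.6 and 17.8 against 1.05 and 1.69. With at least 4 gate genes, Kdr was at 119 and 226, Flt4 at 227 and 277, and Flt1 at 80.1 and 28.4. All 3 were higher in gated cells in both libraries under either gate. Nrp2 was at 79.0 and 203 in gated against 52.3 and 94.3 in other cells, a smaller ratio than for the other receptors.

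Lyve1 was at 182 and 331 CPM in gated cells and at 0.175 and 0.299 in the others, and the gated cells held 92.6 and 95.7% of its stromal UMIs. Cdh5 was at 79.5 and 225 against 0.294 and 0.219, with 76.5 and 95.4% of its UMIs in the gate. Prox1 was at 56.1 and 102 against 0.638 and 1.35, and Pecam1 at 50.9 and 133 against 0.838 and 0.409. The gate held 51.4 and 60.4% of the Prox1 UMIs, but only 16 and 17.4% of those of Flt1 and 1.79 and 4.15% of those of Nrp2. Of the Pecam1 UMIs it held 42.2 and 86.7%, and squamous basal-like cells held 32.3 and 0.711%. Neither ligand was higher in the gate: Vegfc was at 24.9 and 17.8 against 30.9 and 34.7 in other cells and Vegfd at 13.5 and 9.07 against 16.1 and 30.8. With at least 4 gate genes, Vegfc was at 5.17 and 6.31 and Vegfd at 7.75 and 3.79.

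Without thinning, shares of cells with a UMI did not have the order of the levels. Lyve1, at 876 and 575 CPM with at least 4 gate genes, was detected in fewer cells than Cdh5, at 377 and 391. With at least 4 gate genes, Cdh5 was detected in 92.3 and 95.9%, Pecam1 in 88.5 and 95.9%, Flt4 in 80.8 and 85.1%, Kdr in 69.2 and 85.1%, Lyve1 in 69.2 and 83.8%, and Prox1 in 69.2 and 73.0% of cells, while Flt1 was detected in 19.2 and 14.9%. After thinning to 2000 UMIs these shares were 50 and 48.6% for Cdh5, 45.8 and 37.8% for Pecam1, 41.7 and 36.5% for Flt4, 16.7 and 44.6% for Kdr, 62.5 and 55.4% for Lyve1, 25 and 32.4% for Prox1 and 12.5 and 5.41% for Flt1. Lyve1 was then detected in more cells than Cdh5 in both libraries. In the stromal cells outside the wider gate, Kdr was detected in 0.447 and 0.459%, Lyve1 in 0.291 and 0.403%, Cdh5 in 0.414 and 0.314%, Flt4 in 0.761 and 0.392%, Pecam1 in 0.693 and 0.616%, Flt1 in 1.38 and 1.66% and Prox1 in 1.07 and 1.83%, unthinned, with median depths of 15428 and 13165 UMIs against 21523 and 21187 in the gate. Flt1 was the receptor least often detected in gated cells.

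**Figure D3:**
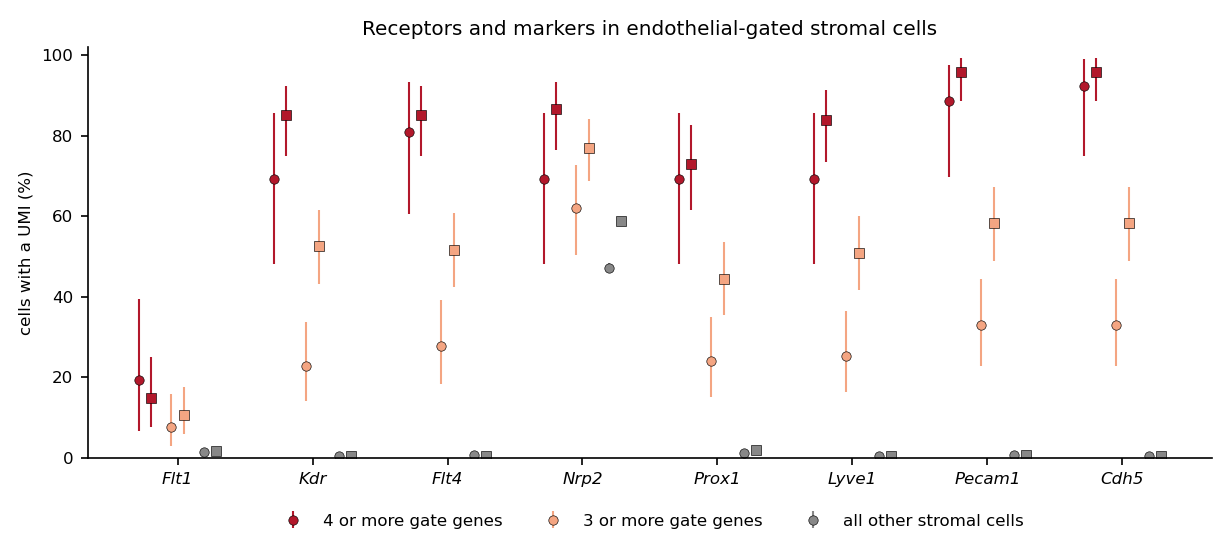
Percentage of cells with a UMI of each receptor and marker in stromal cells with at least 4 gate genes, with at least 3, and in all other stromal cells, with exact binomial 95% intervals as bars. Cdh5 was found in 92.3 and 95.9% of cells with at least 4 gate genes and in 0.414 and 0.314% of all other stromal cells.

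Receptors were combined in single gated cells. With at least 4 gate genes, Kdr and Flt4 were detected together in 17 of 26 and 61 of 74 cells, and Nrp2 and Flt4 together in 15 and 58. Kdr and Flt1 were detected together in only 3 and 4 cells, with Kdr alone in 15 and 59 and Flt1 alone in 2 and 7. All of Prox1, Lyve1 and Flt4 were present in 17 and 53 cells and none of them in 5 and 9.

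Gated cells were divided by other genes into a lymphatic side, with more UMIs of Mmrn1, Ccl21a, Reln, Foxc2 and Nts, and a blood side, with more UMIs of 8 blood vessel genes such as Plvap and Emcn. The lymphatic side held 24 and 67 cells, the blood side 10 and 12, and 45 and 43 cells with equal sums were undecided. On the lymphatic side Lyve1 was at 866 and 605 CPM, Flt4 at 213 and 290, Prox1 at 265 and 187, Kdr at 104 and 233 and Nrp2 at 193 and 302. On the blood side Lyve1 was at 0 in both libraries, Flt4 at 15.1 and 9.65, from 3 and 2 UMIs, Prox1 at 5.03 and 4.83, from 1 UMI each, Kdr at 20.1 and 38.6 and Nrp2 at 50.3 and 43.4. Flt1 showed the opposite order, at 156 and 207 on the blood side and at 2.47 and 1.33, from 1 and 2 UMIs, on the lymphatic side. Pecam1 was at 161 and 181 on the lymphatic and 161 and 449 on the blood side, and Cdh5 at 260 and 329 and at 242 and 598, so that at this gate neither had a common order in both libraries. The undecided cells had no UMI of Flt4, Prox1, Lyve1 or Cdh5 and held Nrp2 at 48.4 and 91.0, near the 52.3 and 94.3 of stromal cells outside the gate. With at least 4 gate genes, only 0 and 1 cells were undecided. Nearly all undecided cells thus carried exactly 3 gate genes, and gated cells with exactly 3 fell mostly in fibroblast clusters.

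With at least 4 gate genes, the lymphatic side held 20 and 63 cells and the blood side 6 and 10, and several levels were higher. Pecam1 was then at 194 and 195 CPM on the lymphatic and 473 and 527 on the blood side, and Cdh5 at 307 and 353 against 710 and 703, both higher on the blood side in each library. Flt1 was at 444 and 244 on the blood side, from 30 and 43 UMIs, and at 3.13 and 1.43 on the lymphatic side. Kdr was at 132 and 250 on the lymphatic and 59.2 and 45.4 on the blood side, and Flt4 at 266 and 312 against 44.4 and 11.3. The orders of Flt1, Kdr, Flt4, Prox1, Lyve1 and Nrp2 were those of the wider gate, and those of Pecam1 and Cdh5 depended on the gate. The side is a difference of sums and not a sign that a blood gene is absent from the lymphatic side: in the wider gate Emcn was detected in 19 and 51 cells and Plvap in 15 and 27, more than the blood side held, while Vwf was detected in none and Cd300lg in 0 and 1.

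**Figure D4:**
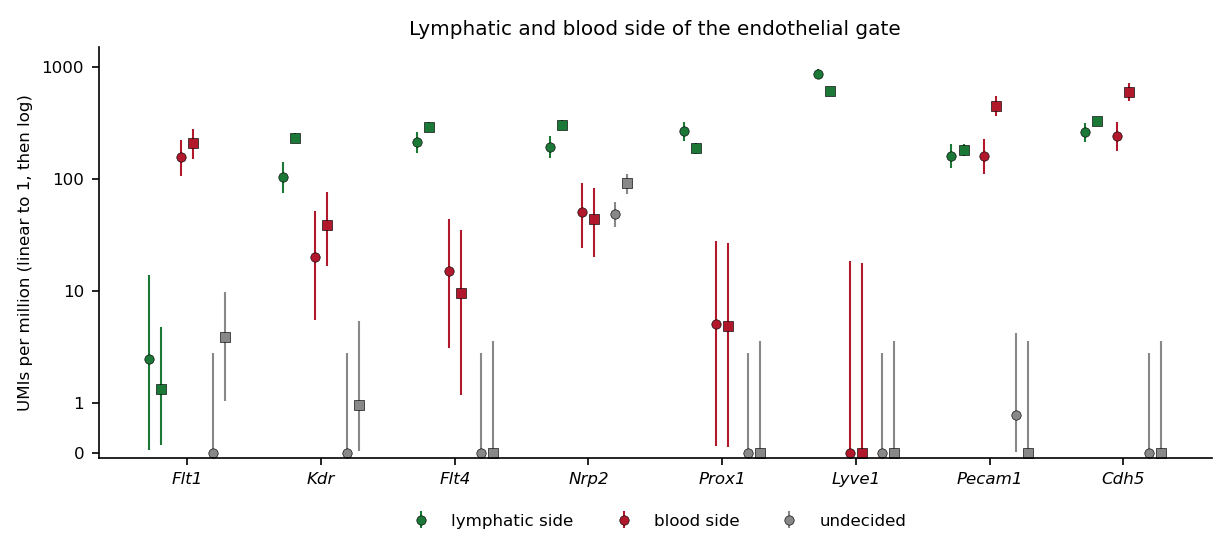
Levels of the genes in CPM on the lymphatic side, on the blood side and in undecided cells of the gate, on an axis that is linear up to 1 and logarithmic above, for the gate of at least 3 genes, with exact Poisson 95% intervals as bars. Flt1 lay at 156 and 207 on the blood side and at 2.47 and 1.33 on the lymphatic side, and Lyve1 was at 0 on the blood side.

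In tissue epithelium, Prox1, Nrp2 and Pecam1 were higher in cells rich in hormone and granin transcripts, which mark the enteroendocrine cells of the crypt. Cells with at least 10 UMIs of the hormone and granin genes Chga, Chgb, Gcg, Insl5, Pyy, Sst and Tph1, a cut chosen after the values were seen, made up 1.34 and 2.35% of tissue epithelial cells and held 81.2 and 80.7% of the Prox1 UMIs. Prox1 was at 216 and 190 CPM in them and at 0.712 and 0.911 in the other tissue epithelial cells. Nrp2 was at 490 and 671 against 53.4 and 48.0, and Pecam1 at 19.7 and 27.5 against 1.36 and 0.828. Vegfc, at 21.2 and 4.13 against 12.1 and 11.4, had no common direction. The tissue Prox1 thus lay mainly in hormone-rich cells, without a gated endothelial cell in the tissue libraries.

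In assembloid epithelium, 284 and 54 cells passed the same cut, 1.02 and 0.783% of cells, and held 27.6 and 53.1% of the Prox1 UMIs. Prox1 was at 8.86 and 50 CPM in them against 0.256 and 0.423 in the others, and Nrp2 at 28.3 and 98.1 against 9.07 and 11.1. Pecam1 did not differ in the same way in both libraries, at 2.22 (95% Poisson interval 0.604 to 5.67) against 2.11 in replicate 1 and at 15.7 (8.97 to 25.5) against 1.22 in replicate 2. The 203 and 73 Pecam1-positive cells were, however, higher than the other cells in Chgb (log2 ratio 4.32 and 5.69) and Chga (4.03 and 5.43) in both libraries. Only 4 and 11 organoid cells passed, with 15.8 and 26.7% of the Prox1 UMIs. Prox1-positive cells of both cultures were, however, higher in Chgb than the other cells. The log2 ratios were 5.62 and 7.70 for the 46 and 56 Prox1-positive assembloid epithelial cells. They were 7.22 and 8.84 for the 58 and 78 of organoids. These ratios include the cells that passed the cut. The level in hormone-rich cells was lower in both assembloid than in both tissue libraries for Prox1 and Nrp2, which was not tested. Of the cells that passed the cut, 3.52 and 51.9% had a Prox1 UMI in assembloid epithelium and 69.8 and 51.5% in tissue. The levels therefore also depend on which cells passed it.

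**Figure D5:**
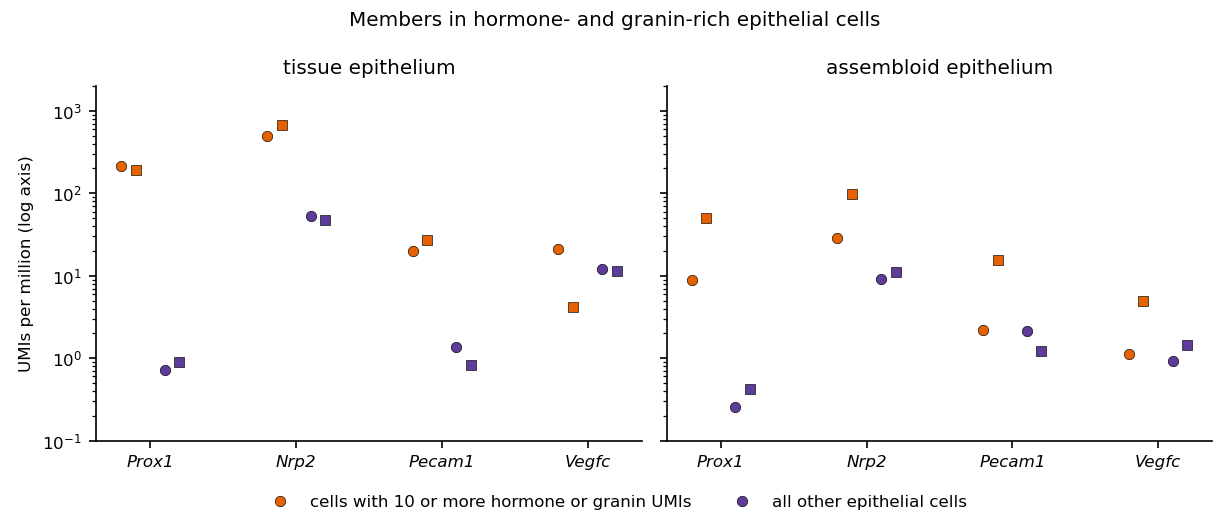
Prox1, Nrp2, Pecam1 and Vegfc in CPM, on a logarithmic axis, in cells with at least 10 hormone or granin UMIs and in the other epithelial cells of tissue and assembloids. In tissue, Prox1 lay at 216 and 190 in the hormone-rich and at 0.712 and 0.911 in the other cells.

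Other vessel genes were examined as a list of 56 growth factors, receptors and markers, of which 53 were tested. Between stroma and assembloid epithelium 35 were higher, 5 lower and 13 not called (median 3.61 against 0.17 over all genes, of which 38.5% were higher and 33.0% lower). The list holds gate genes, among them Tie1, Tek, Robo4, Sox18 and Cldn5. Because gated cells were left out of the epithelial sums only, this count and median are not independent of the gate. The matrix protein gene Thbs2 was among the highest (7.34 ± 0.99 SE), with 234 and 219 CPM in stroma and 2.58 and 0.363 in assembloid epithelium. Sox18 (at least 78.0-fold, or 31.6-fold from the 56 UMIs of stromal replicate 1 and 132-fold from the 202 of replicate 2) and Cldn5 (ratio 511, 95% interval 199 to 1880) were also among the highest, and both are gate genes whose cells were left out of the epithelial sums. The lowest were Vwf (-2.36 ± 0.40 SE), the guidance factor gene Sema3c (-3.70 ± 0.34 SE) and Met (-4.09 ± 0.45 SE), the receptor of hepatocyte growth factor.

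Between assembloid and tissue epithelium 23 list genes were higher, 7 lower and 23 not called (median 2.11, or 1.36 at the bound, against 0.07 over all genes, of which 25.3% were higher and 21.4% lower). Pdpn, which encodes podoplanin of lymphatic endothelium, was at 19.5 and 9.87 CPM in assembloid epithelium and at 0 in tissue, at least 440-fold higher. Sema3a was at least 91.1-fold and Thbs2 at least 47.9-fold higher. From assembloid replicate 1 and replicate 2 alone, the limits were 546 and 276 for Pdpn, 107 and 66.5 for Sema3a, and 72.3 and 10.2 for Thbs2. The Thbs2 UMIs numbered 429 in replicate 1 and 39 in replicate 2. The 8 fibroblast genes summed to 287 and 76.6 CPM in assembloid epithelium against 6.28 and 5.22 in tissue and 0.575 and 1.03 in organoids. The part of fibroblast RNA in these and the organoid differences was not tested. Of the genes that fell, Sema3f (-2.16 ± 0.39 SE), Thbs1 (-2.44 ± 0.26 SE) and the Notch ligand gene Dll4 (-2.78 ± 0.36 SE) were lowest. Between organoid and tissue epithelium 5 rose, led by Egfl7 (4.31 ± 0.30 SE), Vegfb (1.56 ± 0.25 SE) and Adamts3 (1.38 ± 0.45 SE), 6 fell, with Cd34 (-2.22 ± 0.75 SE), Thbs1 (-3.42 ± 0.28 SE) and Calcrl (-3.65 ± 0.43 SE) lowest, and 42 were not called, against 23.2% higher and 20.7% lower over all genes. Cd34 rests on only 4 and 3 UMIs in organoids and 9 and 4 in tissue. ADAMTS3 is a protease that activates VEGF-C.

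Between organoid and assembloid epithelium 7 list genes were higher, among them Angpt2 (3.05 ± 0.47 SE), Nrp1 (2.18 ± 0.25 SE) and Sema3f (1.95 ± 0.38 SE), 28 lower and 18 not called, against 23.7% higher and 27.2% lower over all genes (median -1.92, or -1.74 at the bound, against -0.04). Pdpn fell by 7.90 on the log2 scale, Cxcl12 stood at a ratio of 1480 (95% interval 266 to 58600) from 1 organoid UMI, and Thbs2 was at least 155-fold lower, or at least 33-fold against assembloid replicate 2 alone and 235-fold against replicate 1 alone. Between telocyte-like and trophocyte-like fibroblasts 4 rose, led by Sema3f (2.22 ± 0.38 SE), Ramp2 (1.92 ± 0.48 SE) and Sema3c (1.81 ± 0.35 SE), 6 fell and 43 were not called (median -0.04, as over all genes, of which 6.77% were higher and 4.6% lower). Among those that fell were Thbs2 (-1.87 ± 0.35 SE), Sema3d (-3.41 ± 0.74 SE) and Ccbe1 (-3.16 ± 0.38 SE, adjusted p = 0.000184), whose product helps ADAMTS3 to process VEGF-C. Ccbe1 was at 22.3 and 23.1 CPM in trophocyte-like and 3.15 and 2.19 in telocyte-like cells, and thus, like Vegfc and Vegfd, lower in the telocyte-like cells of both libraries.

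Genes with the most similar pattern were ranked by Pearson's r over 33 sums of library and class, which share libraries and depth and are given without a test. Closest to Vegfc were Sned1 (r = 0.928), Pknox2 (0.917) and Fkbp9 (0.913), and closest to Vegfd were Cyp7b1 (0.936) and Gabra3 (0.935). Closest to Flt4 were Mmrn1 (0.977), Tbx1 (0.967) and Rasgrp3 (0.966), to Kdr Icam2 (0.963), Gimap6 (0.953) and Cldn5 (0.953), and to Cdh5 Gpihbp1 (0.981), Tie1 (0.979) and Myct1 (0.977). Lyve1 was closest to Gimap1 (0.972), Prox1 to Cldn5 (0.866), Pecam1 to Adgrf5 (0.906), Flt1 to Clec1a (0.838) and Nrp2 to Asah2 (0.771). Mmrn1, Gpihbp1, Tie1 and Cldn5 were used to define the gate or its sides, and these sums include the gated cells.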

How the data were processed

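Per the labels, 8 libraries were made with 10x Genomics 3′ kits. The deposited matrices hold raw UMI counts per gene and cell; per the file headers the authors' Cell Ranger was version 6.0.1 for stroma and 7.1.0 for epithelium, the submitters' processing notes name Cell Ranger 6 and mm10, and intron counting is not given in the sources used here. The 10 genes and all lists were chosen with earlier results of these data known.

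Cells needed 500 genes and no more than 10% of UMIs from mitochondrial genes. No doublet caller was run; cells over 3 times the median UMIs were left out as an alternative. Stromal cells were clustered with Seurat 5.3.0 and sctransform 0.4.2 (CCA integration, 30 components, resolution 0.2) and named from marker lists. Epithelial libraries lost cells with at least 3 endothelial or 4 macrophage genes. They also lost cells with at least 4 fibroblast genes if fibroblast marker UMIs outnumbered epithelial ones, and other cells with fibroblast genes stayed in the sums. UMIs summed per library, or per library and stromal class of at least 20 cells, were tested with edgeR 4.0.16 (R 4.3.3; TMM, filterByExpr, quasi-likelihood, Benjamini-Hochberg, threshold 0.05) in 1 fit of 8 libraries and 1 of stromal classes; DESeq2 1.42.0 was an alternative. The study describes the 2 libraries of each group as biological replicates. Replicate numbers did not pair libraries of different groups (r of deviations -0.158 to 0.177 over 10864 genes); class sums of 1 stromal library are paired by it. On simulated counts with 200 genes changed 4-fold, edgeR recovered 87% for stroma against assembloid epithelium and 70% for organoid against tissue epithelium, each over 20677 genes, and 90.5% for the fibroblast comparison over 14929 genes. The 10 genes were named throughout, and from the list of 56 those called with the 3 highest and 3 lowest log2 fold changes per comparison. Of 32285 gene IDs, 32235 matched GENCODE M21. Promoters were available for 7 of the 10 genes.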

Additional observations from a re-analysis of the deposited data

Results flagged for a closer look

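Cells with at least 5 of the 12 endothelial gate genes were present among the cells left out of the assembloid epithelial sums, 6 in replicate 1 and 7 in replicate 2, while the tissue libraries held 0. In the 20 and 33 cells of the wider gate in these libraries, Lyve1 was at 109 and 94.4, Cdh5 at 208 and 44.8 and Flt4 at 19.8 and 25.4 CPM, and Vegfc had no UMI.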

How the results depend on the processing

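Counting each single-gene result once under each alternative, 584 kept the side of the threshold, 40 lost and 25 gained a call. A change of sign without a call under either setting counted as kept. Flt4 between stroma and assembloid epithelium, for example, ranged from -0.85 to 1.82 when 1 library was left out. The 1 result that changed sign with a call was Vegfd between organoid and assembloid epithelium, -0.98 with all passing cells kept. These counts are without the alternatives chosen after seeing the data, under which 49 more were kept and 1 gained. Leaving out 1 library moved the number of the 10 genes called to 1 to 7 between organoid and tissue epithelium (5 with all libraries), 3 to 5 between organoid and assembloid epithelium (6), 1 to 1 between the fibroblast classes (2), 6 to 8 between stroma and assembloid epithelium (7) and 5 to 8 between assembloid and tissue epithelium (7). Between the fibroblast classes the count was 4 without a filter on low counts, 4 with the replicate block and 4 at clustering resolution 0.4. Over all genes, 1697 calls between the classes became 3048 with the block, 2923 at resolution 0.4, and 719 and 270 without a library, while 9648 between assembloid and tissue epithelium became 5259 and 5605, and 9087 between organoid and tissue epithelium 5306 and 5467, without a tissue library. In the cultured and tissue fits the block took away the Cdh5 call (0.0655) and gave the Nrp2 call between organoids and tissue (0.0332).

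Mean levels in gated cells (CPM) depended on the gate. At 2 genes they were 2.87 for Flt1, 10.4 for Flt4, 7.77 for Prox1, 23.5 for Lyve1, 9.18 for Pecam1 and 14.5 for Cdh5, against 17.2, 103, 79.2, 256, 91.9 and 152 at 3, and Kdr was at 1.95 and 14.2 in the libraries, against a mean of 77.1 at 3. Nrp2 had a mean of 141 at 3. At 4 they were 54.3 for Flt1, 172.0 for Kdr, 252.0 for Flt4, 235.0 for Nrp2, 227.0 for Prox1, 725.0 for Lyve1, 237.0 for Pecam1 and 384.0 for Cdh5, and at 5, a gate chosen after seeing the data, 54.9, 175.0, 256.0, 237.0, 230.0, 731.0, 238.0 and 387.0. Without cells over 3 times the median UMIs, Flt1 was 20 in the gate and Vegfc 22.4 in telocyte-like cells. On the blood side, requiring a difference of 2 UMIs, a gate of 4 or a gate of 5 gave 350.0, 344.0 and 350.0 for Flt1 (182 otherwise), 53.1, 52.3 and 53.1 for Kdr (29.4), 28.5, 27.9 and 28.5 for Flt4 (12.4), 717.0, 707.0 and 717.0 for Cdh5 (420) and 2.83 each for Prox1 (4.93), and Nrp2 was 37.9 at a difference of 2 or a gate of 5 (46.9). Pecam1 on the lymphatic side was 192.0, 194.0 and 196.0 (171). The causes were not tested. TMM against library size scaling shifted the median of all genes by 0.17, 0.38, 0.26, -0.12 and -0.06 (log2) in the 5 comparisons in the order given, and no call changed sign. Few gated cells and UMIs per cell limit the values of the blood side.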

Other observations

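Epithelial cells with a UMI of a given gene were compared with the other cells of their group by log2 ratios of CPM plus 1. The 73 and 81 Prox1-positive tissue cells were led by the hormone genes Gcg (8.70 and 8.63), Insl5 (7.77 and 8.09) and Pyy (7.93 and 6.83). The 1024 and 965 Nrp2-positive tissue cells were led by Nrg1 (4.64 and 5.24), Chgb (4.13 and 4.36) and Tph1 (3.94 and 4.03), the last encoding the enzyme of serotonin synthesis. Lyve1-positive tissue cells, 131 and 104, carried Ang4 (2.58 and 1.55), a secreted antimicrobial protein gene. The Vegfc-positive cells of tissue, 366 and 299, were higher in the chemokine gene Ccl20 (2.49 and 1.65). The 149 and 132 Vegfc-positive assembloid epithelial cells were led by other genes, Pcdh7 (3.38 and 3.89), Igfbp5 (3.18 and 3.15) and Fndc1 (3.28 and 3.12). The 163 and 101 Vegfd-positive ones were led by Mmp10 (2.07 and 3.04), Hp (1.99 and 2.31) and Mmp3 (1.91 and 2.06). Hp was also a leading gene of a stromal fibroblast cluster at resolution 0.4. The part of fibroblast RNA in these cells was not tested. The 82 and 81 Vegfc-positive cells of organoids were led by Tff3 (1.84 and 1.73) and Agr2 (1.66 and 1.97), genes of goblet cells. These ratios are a description, since cells with more UMIs are more often positive.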
